A study of Mus musculus with 4 samples.

Results

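Myelin structural genes were followed across cell classes, free RNA and time after stroke. They are the 9 genes Mbp, Mobp, Mog, Mag, Cnp, Mal, Cldn11, Opalin and Ermn, chosen by symbol from a list of proteins known to build or line the myelin sheath, out of 46983 genes in the count matrices. Single-nucleus RNA-seq libraries (10x Genomics) were made from frozen brain tissue of male C57Black/6 mice aged 3 month. The groups were a sham control and mice sampled 1, 3 and 7 days after their middle cerebral artery was closed for good (MCAO), which models ischemic stroke. Each group was 1 library of 3 pooled forebrain hemispheres, so each time point and its library cannot be told apart and no test between groups was possible. The study describes a small lesion in the parietal cortex, while the pooled hemispheres reach well beyond it. The sample label reads sham control, whereas the study's methods name intact cortex as the control tissue. Intervals in brackets are exact 95% counting intervals. They cover counting error alone, not differences between mice, preparations or libraries.

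Myelin is the stacked membrane that oligodendrocytes wrap around axons in the brain. Its layers are pressed together on their cytosolic sides by basic proteins and on their outer sides by proteolipids, kept open at narrow channels for transport, sealed at the edges by tight junctions and tied to the axon on the innermost layer by adhesion proteins. The genes for these proteins are switched on together as precursors mature, under transcription factors that include Sox10 and Myrf.

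The genes lie apart in the genome, and bases before their start sites are shown because factors of these families act there. Coordinates are on GRCm38. Mobp lies on chr9:120149707-120181484 (+), Mog on chr17:37010743-37023398 (-), Mag on chr7:30899176-30914873 (-), Cnp on chr11:100574904-100591729 (+) and Mal on chr2:127633226-127656695 (-). Cldn11 lies on chr3:31149920-31164324 (+), Opalin on chr19:41061710-41077113 (-) and Ermn on chr2:58045113-58052864 (-). Cnp overlaps Dnajc7, Ermn overlaps Galnt5, and Mog, Mobp and Mbp overlap Gm22388, Gm38642 and Rpl21-ps8. Counts cover whole gene bodies with introns, and since the strand setting is not given in the sources used here, reads of the overlapping stretches are uncertain. Upstream windows were taken from RefSeq (GRCm38.p6), for the 8 genes other than Mbp, and were searched on both strands for ACAAAG (reverse CTTTGT), a core of SOX family sites, and CTGGCAC (reverse GTGCCAG), a core of Myrf sites. The motif letters are in capitals in 1 window of each of the 4 genes that hold the first of them, printed on the strand of the gene and cut to the bases before the annotated gene:
Mobp, chr9:120149492-120149706 (+): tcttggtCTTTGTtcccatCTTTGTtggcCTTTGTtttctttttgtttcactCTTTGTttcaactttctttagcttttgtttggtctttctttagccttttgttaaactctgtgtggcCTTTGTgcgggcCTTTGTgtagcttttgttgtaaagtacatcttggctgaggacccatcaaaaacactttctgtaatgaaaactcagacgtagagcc
Mag, chr7:30914874-30915113 (-): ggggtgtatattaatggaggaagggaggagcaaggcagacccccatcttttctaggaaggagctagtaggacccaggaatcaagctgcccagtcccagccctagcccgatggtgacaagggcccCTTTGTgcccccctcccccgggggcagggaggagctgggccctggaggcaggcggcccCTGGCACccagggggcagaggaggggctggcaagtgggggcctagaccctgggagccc
Cnp, chr11:100574689-100574903 (+): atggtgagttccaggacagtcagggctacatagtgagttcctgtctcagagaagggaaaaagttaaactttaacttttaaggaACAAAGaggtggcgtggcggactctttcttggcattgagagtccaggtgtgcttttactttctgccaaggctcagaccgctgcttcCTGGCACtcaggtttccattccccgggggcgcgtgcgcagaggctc
Opalin, chr19:41077114-41077363 (-): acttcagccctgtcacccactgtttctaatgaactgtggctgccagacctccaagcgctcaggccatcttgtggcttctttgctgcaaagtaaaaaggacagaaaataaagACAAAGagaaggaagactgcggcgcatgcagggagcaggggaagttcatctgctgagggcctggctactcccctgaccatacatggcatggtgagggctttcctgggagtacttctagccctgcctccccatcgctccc

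In the full windows of 250 bases, the SOX core stood in 5 of the 10 windows of the 8 genes and in 16.5% of all 32851 promoter windows. Mag has 3 of the 10, some of which overlap, so the windows are not independent. Mobp held 6 copies, and 0.137% of all windows held 3 or more. The Myrf core stood in 3 of the 10, of Cnp and Mag, and in 4.19% of all windows. These are matches of letters and do not show that a factor binds. Mog, Mal, Cldn11 and Ermn held neither core in their windows.

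The libraries held 23285489 to 42963698 UMIs (unique molecular identifiers, 1 per captured RNA molecule), and 1026 (day 1) to 3154 (day 3) nuclei were called. Median UMIs per nucleus ran from 5472.5 at day 3 to 11043.5 at day 1, which makes the day 1 library the smallest and deepest. Pairs of libraries shared 0 to 3 nucleus barcodes. Between 8 and 80 nuclei per library scored as doublets and were left out. The library labelled day 7 held 1589 nuclei. In the published account the order of the last pair of libraries by nuclei is the reverse of that under the deposited labels, and the labels were kept here. Whether these labels were exchanged could not be settled from the files, and if they were, each day 3 value given here would belong to day 7 and each day 7 value to day 3.

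Nuclei were clustered with the 9 members and the other myelin gene lists left out of the clustering, and clusters were called "-like" from other markers. The oligodendrocyte-like class rested on 15 markers such as St18, Prr5l, Enpp2 and Aspa, of which 14 or 15 were detected in each library, and these took 10531 to 11872 CPM in sum. CPM is a gene's UMIs in a class scaled to a class total of 1000000 UMIs. The oligodendrocyte-like class held 321 nuclei in sham, 160 at day 1, 430 at day 3 and 249 at day 7. Median UMIs of these nuclei were 2023, 3087.5, 1857 and 2318 in the same order, and mitochondrial genes took 0.720%, 0.810%, 1.04% and 0.713% of their UMIs. The summed 14 microglial markers were at 132 CPM in sham, 248 at day 1, 270.2 at day 3 and 213 at day 7, with 13 or 14 markers detected in each. The 12 precursor markers summed to 486, 218, 485 and 375 CPM in the same order, with 11 or 12 detected, and the 13 astrocyte markers to 508, 421, 796 and 569, all detected. The part of these markers in the results below was not tested. Levels below are CPM from UMIs summed over the nuclei of the class, and ratios are to sham. A gene is said to pass the fold when its ratio is at least 1.5 or at most 1/1.5, its counting interval leaves out 1, and both libraries together hold at least 50 of its UMIs.

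Within oligodendrocyte-like nuclei the sum of the 9 genes was 10746 CPM in sham, 8498 at day 1, 10293 at day 3 and 9633 at day 7. Every member was below sham at day 1, and the median log2 ratio of the 9 was -0.30, beside -0.01 over all 4842 genes with enough counts. Opalin and Mal passed the fold in the lower direction and no member passed it in the higher one. Over all genes 6.46% passed lower and 5.64% passed higher at day 1.

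At day 3, 7 members were below sham with a median log2 ratio of -0.15, beside -0.03 over 5794 genes. None passed the fold, where 3.21% of all genes passed lower and 4.4% higher. At day 7, 8 members were below sham with a median of -0.16, beside -0.08 over 4950 genes. Only Mal passed the fold, and it was lower, where 6.02% of all genes passed lower and 2.97% higher.

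Mbp encodes the basic protein that presses the cytosolic faces of the membrane together. It was counted at 4428 CPM in sham, 3596 at day 1, 4137 at day 3 and 4015 at day 7. The ratios to sham were 0.812 (0.769 to 0.858), 0.934 (0.893 to 0.978) and 0.907 (0.862 to 0.954), so each post-injury library was below sham beyond counting error and none passed the fold. Mobp, a small basic protein of the same compartment, was at 1823 in sham, 1477 at day 1, 2122 at day 3 and 1500.4 at day 7. It was lower than sham at day 1 with a ratio of 0.810 (0.743 to 0.882) and at day 7 with 0.823 (0.758 to 0.893), and higher at day 3 with 1.16 (1.09 to 1.246). Mobp and Cldn11 were the 2 members above sham at day 3. With free RNA subtracted as an equal number of UMIs per nucleus, 5 members were above sham at day 3 and the median log2 ratio was 0.03, so the direction of the set on that day rests on how free RNA is treated.

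Mog is a protein of the outermost myelin surface and Mag an adhesion protein of the innermost layer facing the axon. Mog was at 1216 CPM in sham, 891 at day 1, 1081 at day 3 and 1040.0 at day 7, with day 1 at 0.733 (0.657 to 0.817) of sham. Mag was at 1046, 942, 976 and 1241 in the same order, and it was the one member above sham at day 7, with a ratio of 1.19 (1.08 to 1.31). Its day 1 ratio of 0.901 (0.806 to 1.01) did not differ from 1 beyond counting error, and this pair of surface proteins thus stood on opposite sides of sham at day 7, where Mog was at 0.856 (0.775 to 0.944).

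Cnp, a protein of the cytoplasmic channels that run through compact myelin, was at 305 CPM in sham, 204 at day 1, 264 at day 3 and 239.9 at day 7. Its day 1 ratio was 0.670 (0.532 to 0.839), just short of the fold. Mal, a proteolipid that carries cargo to lipid-rich membrane, was at 738 in sham, 437 at day 1, 667 at day 3 and 486 at day 7. It passed the fold at day 1 with 0.592 (0.508 to 0.688) and at day 7 with 0.658 (0.573 to 0.755), whereas day 3 was at 0.904 (0.807 to 1.01). With each nucleus thinned to 1000 UMIs the day 1 log2 ratio of Mal was -0.53, which does not pass the fold, and its day 7 call was lost under TMM scaling at a log2 ratio of -0.52.

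Cldn11 forms the tight junctions along the edge of the sheath, and its level was 579.7 CPM in sham, 505 at day 1, 619 at day 3 and 539 at day 7. Each of its intervals against sham held 1, from 0.871 (0.749 to 1.01) at day 1 to 1.07 (0.944 to 1.21) at day 3. Opalin, a membrane glycoprotein of oligodendrocytes, showed the widest difference, with 298 CPM in sham, 135 at day 1, 199.6 at day 3 and 267 at day 7. Its ratios were 0.452 (0.345 to 0.588), 0.671 (0.552 to 0.815) and 0.896 (0.734 to 1.09), so the day 3 value lay just outside the fold and the day 7 interval held 1. Ermn, a cytoskeletal protein of the outer sheath that binds actin, was at 313, 311, 226 and 304. It was near sham at day 1 with 0.994 (0.815 to 1.21) and below it at day 3 with 0.723 (0.60 to 0.871).

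**Figure D1:**
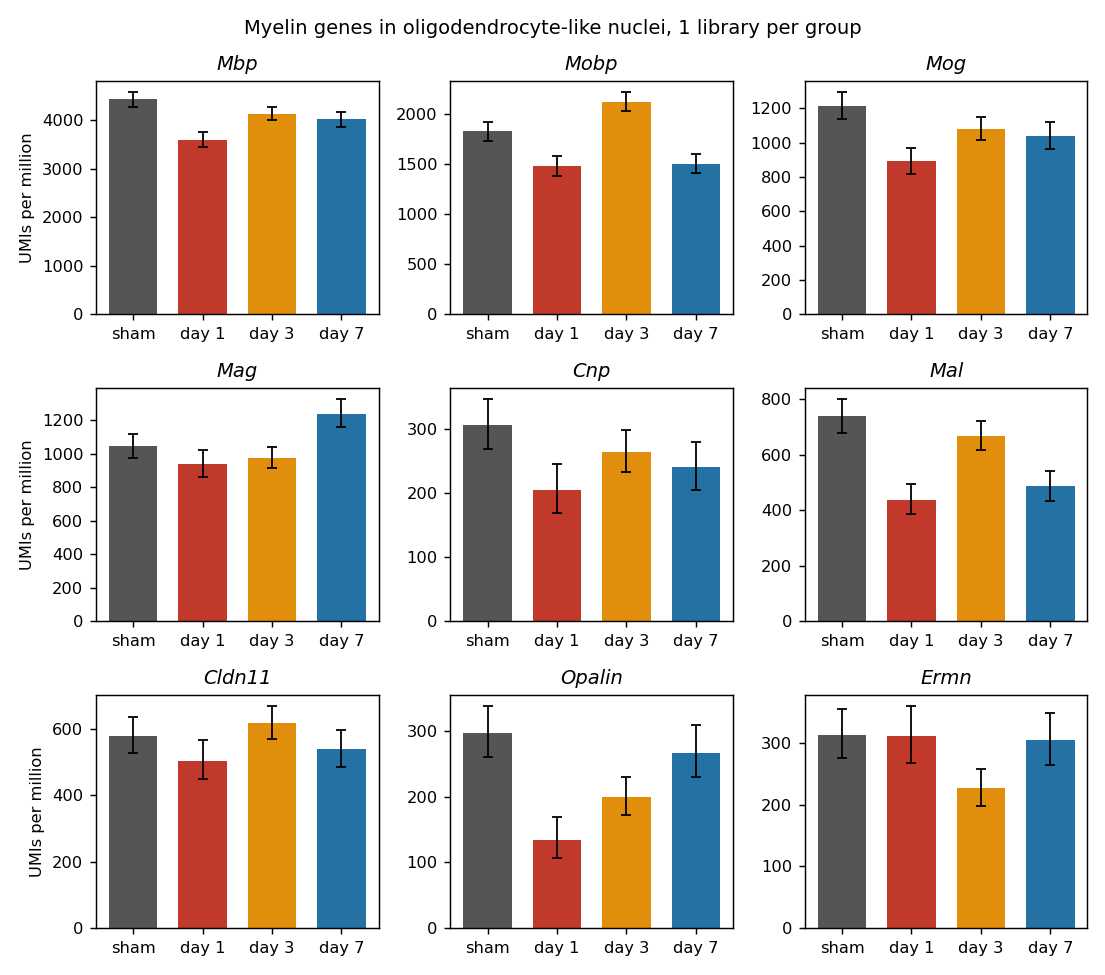
Level of each of the 9 genes in oligodendrocyte-like nuclei (vertical axes, CPM, each from 0) in the sham, day 1, day 3 and day 7 libraries (bars, 1 library each, with exact 95% counting intervals). Opalin goes from 298 in sham to 135 at day 1 and Mal from 738 to 437, while Ermn is at 313 and 311 and Mobp is highest at day 3 with 2122.

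The share of nuclei with at least 1 UMI, with every nucleus thinned to 1000 UMIs, gave the same picture for the genes that differed most. Opalin was seen in 20.2% (16.0 to 25.1, Clopper-Pearson) of oligodendrocyte-like nuclei in sham, 11.9% (7.30 to 17.9) at day 1, 17.2% at day 3 and 19.3% at day 7. Unthinned, the shares were 40.2%, 29.4%, 27.2% and 40.6%. Mal was seen in 47.7%, 36.9%, 44.4% and 38.2% of thinned nuclei, and in 70.7%, 71.2%, 67.2% and 62.7% unthinned. Mbp was seen in 95.6% to 97.8% of thinned nuclei and in 98.8% or more unthinned, so nearly every nucleus of the class carried it in every library. In named neurons, set beside as cells that make no myelin, Mbp was seen in 6.77% of thinned sham nuclei and 7.61% at day 1 and Opalin in 0.251% and 0.563%. Unthinned, these shares were 35.8% and 49.6% for Mbp and 2.63% and 4.79% for Opalin, at median depths of 8697.5 and 14183 UMIs. The neuronal counts of Mbp are set against free RNA further on.

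Other myelin genes were set beside the 9. Among 24 other myelin proteins, of which 23 had enough counts, 6 passed lower and 0 higher at day 1, beside 6.46% and 5.64% of all genes. At day 3, 3 passed lower and 1 higher, beside 3.21% and 4.4%, and at day 7, 2 passed lower and 1 higher, beside 6.02% and 2.97%. Their median log2 ratios were -0.23, -0.13 and 0.04. The enzyme Padi2, which modifies arginines of Mbp, was at 0.313 (0.170 to 0.544) of sham at day 1, and the septins Sept8 and Sept2 at 0.574 and 0.590. At day 3 the small heat shock protein Cryab was at 0.563, Plekhb1 at 0.601 and Sept2 at 0.666, and the actin-severing protein Gsn at 1.54. Day 7 had Cryab at 0.524, Padi2 at 0.650 and Ndrg1 at 1.66.

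Of 17 genes for myelin lipid synthesis, 14 had enough counts at day 1, of which 1 passed lower and 1 higher, beside 6.46% and 5.64% of all genes. The higher one was Fasn, the fatty acid synthase, at 1.79 (1.00 to 3.22). None passed at day 3, beside 3.21% lower and 4.4% higher of all genes, or at day 7, beside 6.02% and 2.97%. Of 12 oligodendrocyte transcription factors, 7 had enough counts on each day. Of these, 2 passed lower and 1 higher at day 1, beside 6.46% and 5.64% of all genes. At day 3, 2 passed lower and 0 higher, beside 3.21% and 4.4%. At day 7, 0 passed lower and 1 higher, beside 6.02% and 2.97%. At day 1 Tcf7l2 was at 0.555 and Olig1 at 0.637, both lower, and Myrf passed in the higher direction at 1.50 (1.17 to 1.93), the opposite side of sham from Opalin and Mal. At day 3 Tcf7l2 at 0.643 and Sox8 at 0.659 were lower, and at day 7 Tcf7l2 was higher at 1.72 (1.33 to 2.22). Of 8 genes for carriage of Mbp mRNA, 7 had enough counts at day 1, 8 at day 3 and 7 at day 7. Hnrnpf passed higher at day 1 with 1.75, beside 5.64% of all genes. Fyn, a kinase linked to local translation of Mbp, passed higher at day 7 with 1.66, beside 2.97%. No other gene of this list passed on any day.

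Oligodendrocyte-like and precursor-like nuclei were then clustered together, again without the member genes among the features. Beside the sub-clusters described here there was one of precursors with 234 nuclei, one led by mitochondrial genes with 60 and one mixed with neurons with 22. The sub-clusters are named by leading genes, and the values are descriptions of nuclei that were grouped on the same libraries. The largest held 535 nuclei. A group of 54 nuclei was called newly formed oligodendrocyte-like from 5 of 11 markers at over 2-fold, which summed with the rest of that list to 3896 CPM. The precursor sub-cluster had as many of them over 2-fold, at 2136 CPM, so the count alone does not set this group apart. In the newly formed group Mbp was at 1.79 (1.70 to 1.89) times the level of the largest sub-cluster, Mobp at 2.10 and Opalin at 1.67. Ermn was at 0.585 (0.423 to 0.795) there. Mog and Mal differed less, at 1.22 and 1.17. A further 97 nuclei led by 9330111N05Rik and Adgrv1 had Opalin at 1.46 (1.12 to 1.87) and the other members from 0.876 to 1.16.

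A sub-cluster of 315 nuclei led by Anln and Slc5a11 had Opalin at 0.400 (0.311 to 0.510) and Mal at 0.647 (0.571 to 0.733) of the largest, with Mbp at 1.14 and Mog at 1.20. It held 29.9% of the class in sham, 16.9% at day 1, 30.9% at day 3 and 23.7% at day 7. A group of 41 nuclei led by Serpina3n and C4b held 0 of 321 sham nuclei, for an upper 95% limit of 1.14%, and 8, 21 and 12 nuclei in the post-injury libraries. In it Mal was at 0.498 (0.374 to 0.652) and Mog at 0.60 (0.485 to 0.735), while Cldn11 was at 1.50 (1.24 to 1.81) and Mag at 1.05 (0.890 to 1.22). The largest sub-cluster held 154 sham nuclei and this group none, so library and sub-cluster are mixed in these ratios.

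A further sub-cluster came from the day 1 library alone, with 48 of its 160 oligodendrocyte-like nuclei, and was led by Mcmdc2 and the cell cycle inhibitor Cdkn1a. Against the other day 1 nuclei of the class, Opalin was at 60.1 and 165 CPM, a ratio of 0.364 (0.167 to 0.711). Mog stood at 0.474 (0.370 to 0.601) and Mag at 0.583 (0.466 to 0.723) of the other nuclei, while Ermn was at 1.12 (0.80 to 1.55). Without these nuclei, a choice made after seeing the data, Opalin had a day 1 log2 ratio to sham of -0.85 and Mal of -0.63, both still past the fold, as were 4.34% of all genes in the lower direction. The log2 ratio of Mog was then -0.21 against -0.45 with them, and that of Mag was 0.04 against -0.15. Because the group is found in 1 library, it cannot be told apart from that library.

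The largest sub-cluster was also compared with its own sham nuclei, of which there were 154, with 49, 197 and 135 after injury. Opalin was at 0.60 (0.373 to 0.935) of sham at day 1, 0.621 (0.451 to 0.853) at day 3 and 0.979 (0.732 to 1.31) at day 7, so it was lower on the first days within these nuclei too. Mal was at 0.70 (0.534 to 0.910), 1.05 (0.880 to 1.24) and 0.645 (0.525 to 0.790). Mog at day 1 was at 1.21 (0.995 to 1.45), above sham where the whole class was below it, and Mag was at 1.15 (0.948 to 1.40), so that 5 of the 9 members were below sham there at day 1. In the sub-cluster led by Anln and Slc5a11, with 27 nuclei at day 1 and 96 in sham, Mal was at 0.440 (0.289 to 0.650) and every member was below sham.

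**Figure D2:**
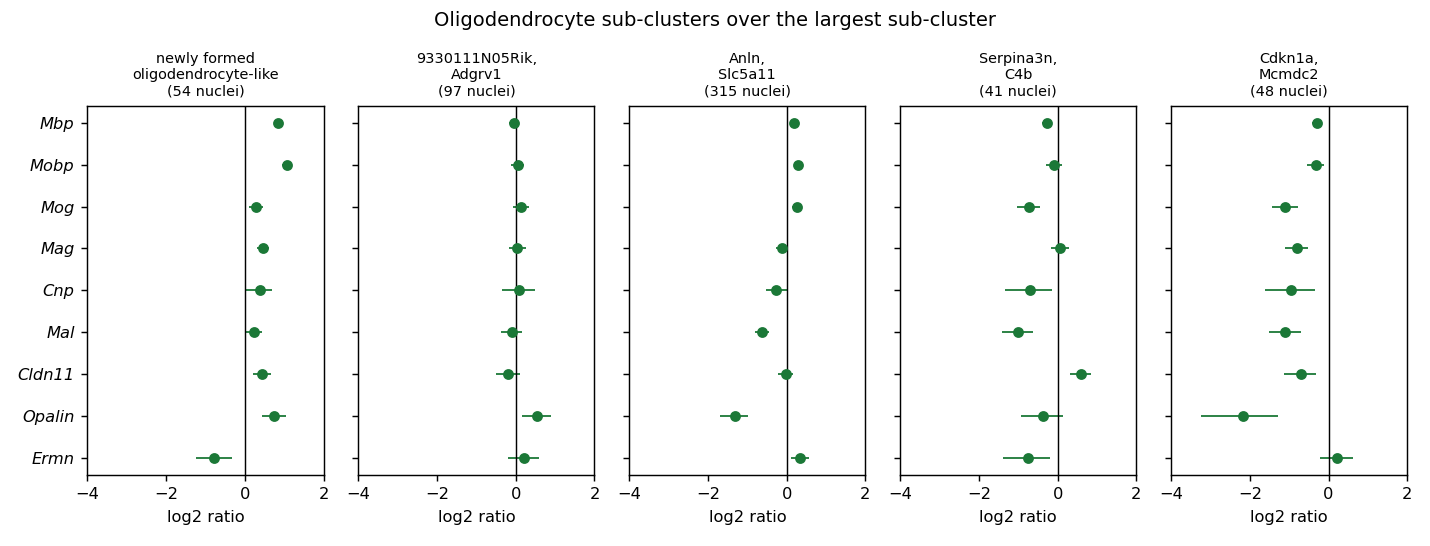
Log2 ratio of each member (horizontal axes) in 5 oligodendrocyte sub-clusters to its level in the largest sub-cluster, with summed nuclei of all 4 libraries as points and exact 95% counting intervals as lines. Of the 5, Opalin is lowest in the sub-cluster led by Cdkn1a and Mcmdc2, at 0.222, but those nuclei are all of day 1, and against other day 1 nuclei the ratio was 0.364, so library and sub-cluster are mixed in this order. Opalin is at 0.400 in the one led by Anln and Slc5a11, and Mbp and Mobp are highest in the newly formed oligodendrocyte-like nuclei.

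Free RNA, read from barcodes of 1 to 100 UMIs that hold no nucleus, gave a second set of droplets from the same suspensions. In free RNA fewer oligodendrocytes and less RNA per cell cannot be told apart. Mbp was at 473 CPM of free RNA in sham, 464 at day 1, 472 at day 3 and 573 at day 7. Opalin was at 56.9, 34.0, 47.6 and 57.1, with a day 1 ratio of 0.597 (0.434 to 0.818), and it alone passed the fold at day 1, where 5.43% of all genes passed lower and 4.15% higher. None passed at day 3, beside 5.22% lower and 2.47% higher of all genes, or at day 7, beside 3.28% and 3.94%. Mag had the highest day 7 ratio of the members, 1.47 (1.27 to 1.70), just short of the fold, with 187 CPM in sham and 274 at day 7. The medians of the 9 log2 ratios were -0.25, -0.13 and 0.00 on days 1, 3 and 7, beside -0.02, -0.05 and -0.01 over all genes. Mitochondrial genes took 1.12% of free UMIs in sham, 2.40% at day 1, 2.71% at day 3 and 2.30% at day 7, and their part in these ratios was not tested.

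Nuclei and free RNA thus placed Opalin lowest among the 9 at day 1, and Mag highest at day 7. The counts of nuclei hold free RNA of the same suspension, so nuclei and free RNA are not independent here. Mal did not take the same course in both, since its free RNA ratios of 0.816 (0.699 to 0.951) at day 1 and 0.940 (0.803 to 1.10) at day 7 were nearer to 1 than those in nuclei. The level in free RNA relative to oligodendrocyte-like nuclei of the same library also differed by gene. Cnp was at 0.626 (0.527 to 0.744) of its nuclear level in sham and at 0.645 to 0.789 in the other libraries. Mbp, Mobp, Mog and Ermn were at 0.0961 to 0.155, and Opalin and Mag at 0.179 to 0.252. Mal and Cldn11 stood between, at 0.267 to 0.400.

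**Figure D3:**
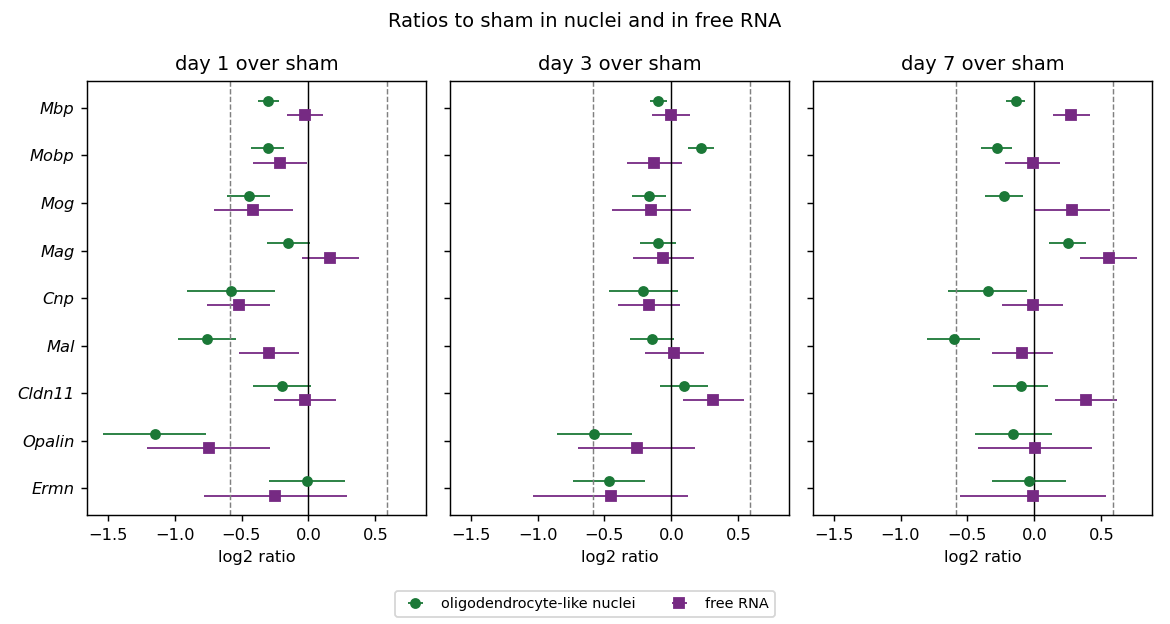
Log2 ratio to sham (horizontal axes) of each member in oligodendrocyte-like nuclei (circles) and in free RNA (squares) at day 1, day 3 and day 7, with exact 95% counting intervals as lines and the 1.5-fold limits as dashed lines. Opalin lies lowest at day 1 in both, at ratios of 0.452 and 0.597, and Mag lies highest at day 7 in both, at 1.19 and 1.47.

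Free RNA also enters every droplet that holds a nucleus, so member UMIs in other classes were set against the number that free RNA would give. That number was taken as equal per nucleus, at 799 free UMIs in sham, 1289.7 at day 1, 1108 at day 3 and 903 at day 7, estimated in named neurons from the 8 members other than Mbp together with another myelin gene. The neuronal values of those 8 genes are therefore near 1 on balance by construction, and singly they ran from 0.50 for Mag to 1.97 for Cnp, both at day 1. Named neurons had medians of 7977 to 14183 UMIs, and glial and vascular classes lower ones, such as 1805 in microglia-like nuclei at day 3. Whether shallower nuclei hold the same number of free UMIs was not tested, so ratios in those classes depend on this choice. In named neurons Mbp was counted 609 times in sham where 302 UMIs were expected, a ratio of 2.02 (1.86 to 2.18), and the post-injury libraries gave 2.20, 1.83 and 2.04. These values rest on 798, 355, 1065 and 550 nuclei, and Mbp stood above each other member in the pooled neurons of each library. The neuron classes differed, with Mbp at 2.16 to 3.26 in striatal projection neuron-like nuclei, 1.51 to 1.83 in glutamatergic neuron-like nuclei, and 1.92, 1.41, 2.30 and 0.539 (0.346 to 0.802) in GABAergic neuron-like nuclei, in the order sham, day 1, day 3 and day 7. It was above each other member in the striatal class of each library. In the GABAergic class 1 to 4 other members were above it in each library, such as Cnp at 1.22 and Mal at 0.973 at day 7, and in the glutamatergic class Cnp was above it at day 1 and Ermn at day 3.

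Astrocyte-like nuclei held Mbp at 3.49 (3.02 to 4.02) times its expected count in sham, 2.09 (1.63 to 2.64) at day 1, 2.98 (2.67 to 3.31) at day 3 and 8.19 (7.29 to 9.17) at day 7, from 193, 70, 340 and 301 UMIs. Against sham the level of Mbp in these nuclei was at 0.628 (0.471 to 0.829), 1.34 (1.12 to 1.61) and 2.38 (1.98 to 2.86). Mog in the same nuclei was at 0.162 (0.0318 to 0.519), 1.05 (0.648 to 1.70) and 0.810 (0.422 to 1.50), from 17 and 32 UMIs at day 7 and in sham. Mobp at day 7 was at 1.41 (0.947 to 2.11) of sham and Cnp at 1.52 (0.947 to 2.46), while the other 5 were at 0.762 to 1.00, each of the 8 with an interval that held 1. The sum of the 9 was at 0.557 (0.456 to 0.676), 1.32 (1.17 to 1.49) and 1.68 (1.47 to 1.92) of sham. Mitochondrial genes took 1.13%, 0.826%, 1.83% and 2.53% of the UMIs of these nuclei in the order sham, day 1, day 3 and day 7. Microglial markers summed to 144, 197, 377 and 580 CPM in the same order (13 or 14 of 14 detected), endothelial markers to 42.4, 26.2, 85.3 and 261 (7 to 12 of 12) and oligodendrocyte markers to 711, 435, 672 and 760.2 (14 of 15). The part of these values in the result was not tested.

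Microglia-like nuclei, the phagocytes of the brain, held a mixed cluster of 27 nuclei in which the 9 members were at 16.6, 14.0, 12.2 and 17.3 times the expected sum, in the order sham, day 1, day 3 and day 7. Without that cluster the class was at 0.687 (0.547 to 0.853) in sham, 1.42 (1.18 to 1.69) at day 1, 0.670 (0.587 to 0.761) at day 3 and 0.977 (0.830 to 1.14) at day 7. The values of the whole class, from 1.07 at day 3 to 3.11 at day 1, thus rest in part on few nuclei, which held 154 of 236 member UMIs in sham, 188 of 310 at day 1, 154 of 390 at day 3 and 179 of 337 at day 7. In the mixed cluster both marker sets were high, with microglial markers at 5796 to 6797 CPM and oligodendrocyte markers at 6198 to 8492, against 761.5 to 1005 for the latter in the other microglia-like nuclei. The part of these oligodendrocyte markers in the result was not tested. A further microglia-like cluster of 25 nuclei stayed in the values without the mixed cluster. Striatal projection neuron was its next-best class, and its median was 10088 UMIs against 1855.5 in the largest microglia cluster. As CPM over that of free RNA, the 9 members without the mixed cluster were at 0.148, 0.226, 0.246 and 0.250 in the same order. The order of the libraries thus rests on the measure, and the part of the further cluster was not tested.

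Mal was found outside the oligodendrocyte lineage in endothelial-like nuclei, the lining cells of vessels. It was counted 85 times in sham, 215 at day 3 and 98 at day 7, where free RNA would give 6.30, 16.0 and 3.51 UMIs, so it stood at 13.5 (10.8 to 16.7), 13.5 (11.7 to 15.4) and 27.9 (22.6 to 34.0) times the expected count. That count does not scale with depth, and the median depth of these nuclei was 2411.5, 3522 and 4549 UMIs. As CPM over that of free RNA, Mal was at 2.79 (2.17 to 3.55), 2.51 (2.11 to 2.97) and 4.08 (3.22 to 5.13). The day 1 library held 6 of these nuclei, under the minimum of 20 set for this comparison. Thinned to 1000 UMIs, 45.0%, 40.3% and 33.3% of the 40, 72 and 21 nuclei had a UMI of Mal, against 1.38% of named neurons in sham. Unthinned these shares were 72.5%, 72.2% and 61.9%. Of the same thinned nuclei, 15%, 12.5% and 33.3% had a UMI of Mbp, the last share equal to that of Mal, while Mag was seen in 0 to 1.39%, Mog in 0 to 2.78% and Cldn11 in 0 to 4.17%. Mbp was at 2.05 (1.39 to 2.91) times its expected count in sham, 2.04 (1.61 to 2.55) at day 3 and 3.50 (2.47 to 4.8) at day 7. No nucleus held more than 23.5% of the Mal UMIs of its library. Rgs5, a pericyte marker, was among the leading genes of the cluster, and pericyte or smooth muscle was its next-best class. Mitochondrial genes took 4.25%, 4.51% and 4.81% of the UMIs of these nuclei in sham, day 3 and day 7. Astrocyte markers summed to 3191, 1203 and 2598 CPM in the same order. The part of these values in the result was not tested.

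**Figure D4:**
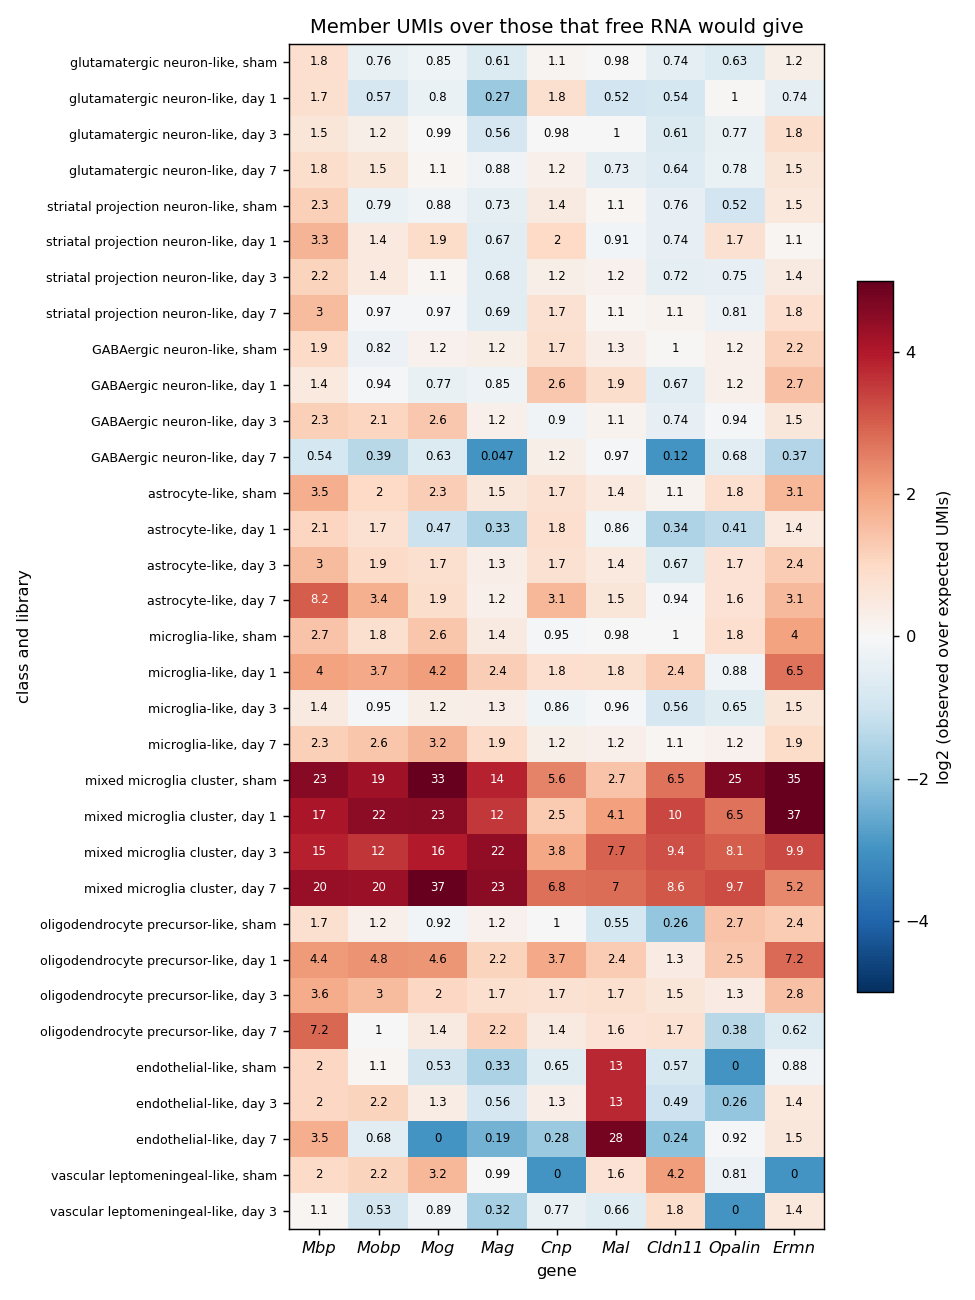
Member UMIs in other cell classes over the number that free RNA would give, by class and library (vertical axis) and gene (horizontal axis). Numbers in the cells are the ratios and the colour is their log2, limited to the range -3 to 5; Mal stands out in endothelial-like nuclei at 13.5 to 27.9, the mixed microglia cluster is above 2 for every gene, and Mbp at day 7 in astrocyte-like nuclei is at 8.19.

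Oligodendrocyte precursor-like nuclei, the dividing progenitors that mature into oligodendrocytes, carried few member UMIs. They numbered 58 in sham, 36 at day 1 and 51 at day 7, with the most at day 3, and rested on 12 precursor markers such as Pdgfra and Vcan, all of them detected in each library. The 9 members summed to 379 CPM in sham, 922 at day 1, 938 at day 3 and 1217 at day 7. The ratios to sham were 2.43 (1.91 to 3.12), 2.48 (1.98 to 3.13) and 3.21 (2.53 to 4.11), all above the fold. Set against free RNA, the sum was at 1.21 (0.977 to 1.48) times the expected count in sham, 3.54 (3.11 to 4.01) at day 1, 2.43 (2.21 to 2.67) at day 3 and 3.24 (2.87 to 3.64) at day 7. The interval of the sham value held 1. Mbp made up 191 of the 284 member UMIs at day 7 and 38 of 93 in sham.

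The day 1 value rests on 1 nucleus. It held 159 of the 244 member UMIs (65.2%) and 22219 UMIs in all, where the median of its class was 5628.5. Leaving out the nucleus with most member UMIs in each library, chosen after seeing the data, gave ratios of 1.26 (0.905 to 1.77) at day 1, 2.84 (2.18 to 3.74) at day 3 and 3.65 (2.77 to 4.87) at day 7. Nuclei with at least 10 member UMIs numbered 2, 3, 10 and 7 in the order sham, day 1, day 3 and day 7, and nuclei with none 29, 16, 45 and 16.

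Mbp was the member with most counts in the precursors, at 155 CPM in sham, 355 at day 1, 404 at day 3 and 819 at day 7. Its ratios of 2.29 (1.56 to 3.44), 2.61 (1.84 to 3.80) and 5.29 (3.72 to 7.70) passed the fold in the higher direction on each day. Mobp, at 53.0, 170.1, 151 and 47.2, passed at day 1 with 3.21 (1.70 to 6.49) and at day 3 with 2.85 (1.57 to 5.62) and had too few counts at day 7. No other member had enough counts on any day. Over all genes 7.89% passed higher at day 1, 8.27% at day 3 and 7.4% at day 7.

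Without the top nuclei, Mbp was at 1.09 (0.658 to 1.80), 2.72 (1.87 to 4.08) and 4.78 (3.26 to 7.20) of sham, so its day 1 call was lost and the later ones held. Mobp at day 1, where the top nucleus held 38 of 45 UMIs, was then at 2.32 (0.530 to 13.9) from 7 and 3 UMIs, too few to pass. At day 3 Mobp was then at 8.98 (2.90 to 45.0) from 51 and 3 UMIs. The median log2 ratio of the 9 was 1.24, 1.33 and 0.92 in the whole class, beside 0.03, 0.03 and -0.02 over all genes, and Opalin went the other way with 7, 4, 7 and 1 UMIs. Only 2, 2 and 1 of the 9 had the counts required of the genes in the median over all genes, so these medians compare unlike sets. At day 7 Mobp, Opalin and Ermn were below sham, at 0.890 (0.361 to 2.15), 0.15 (0.00333 to 1.17) and 0.263 (0.00534 to 2.66), all with intervals that held 1. The direction of Mobp turned without the top nuclei, to 3.93 (1.04 to 22.0) from 11 and 3 UMIs, since 1 sham nucleus held 10 of its 13 UMIs. Markers of mature oligodendrocytes in these nuclei summed to 1035 CPM in sham, 1440 at day 1, 1368 at day 3 and 1483 at day 7, with 11, 14, 13 and 13 of 15 detected. Microglial markers summed to 200, 461, 409 and 390 CPM in the same order, with 12 to 14 of 14 detected, mitochondrial genes took 0.322%, 0.359%, 0.676% and 0.514% of UMIs, and the precursor markers themselves summed to 19800, 16223, 16295 and 18591 CPM. The part of these values in the result was not tested.

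**Figure D5:**
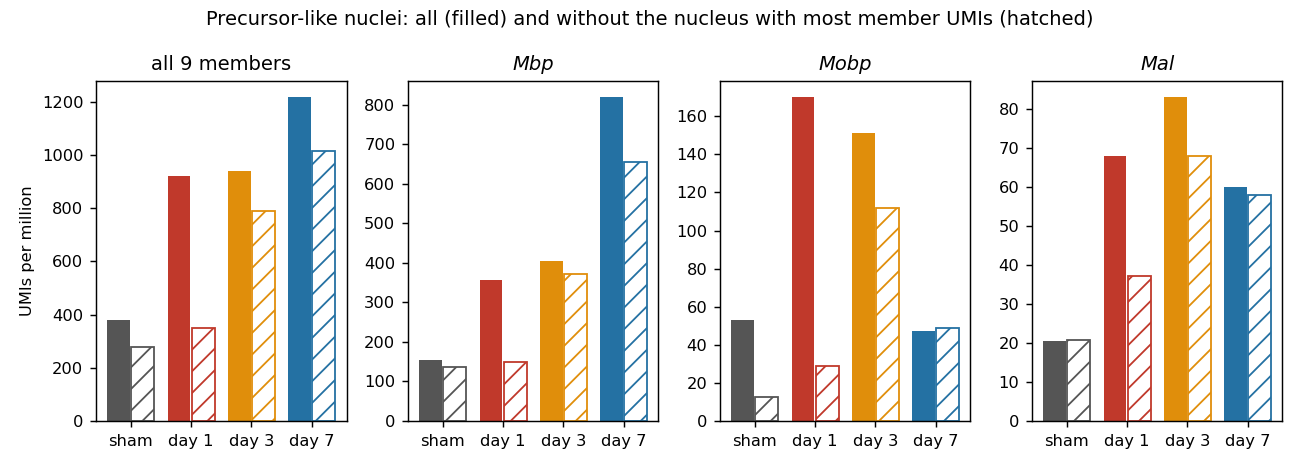
Level in oligodendrocyte precursor-like nuclei (vertical axes, CPM) of all 9 members, Mbp, Mobp and Mal by library, from all nuclei (filled bars) and without the nucleus with most member UMIs in each library (hatched bars, 1 library each). The day 1 sum goes from 922 to 351 without that nucleus, while day 7 stays at 1015, above the sham value of 278.

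Across 7 classes with at least 20 nuclei in each library, 28 points in all, genes whose level was most like the mean of the 9 members included Prr5l, Aspa, St18, Plekhh1 and Plcl1, with Pearson correlations of log2 levels from 0.988 to 0.959 among 2849 genes. The points share libraries and free RNA, and Prr5l, Aspa and St18 were among the markers that named the class. Of the members themselves, Mobp had the closest pattern to that mean at 0.985 and Opalin the least close at 0.948.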

How the data were processed

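Single-nucleus libraries of 4 groups, 1 per group, were analysed. The deposited values are raw UMI counts per gene and barcode, which the authors made with STAR 2.7.3a (per the submitters' processing notes) on GRCm38 with GENCODE vM8, counting whole gene bodies with introns. The study removed background with SoupX, whereas the deposited counts hold it and were used here uncorrected. A re-implemented emptyDrops test called the nuclei of each library (free RNA from barcodes of at most 1000 UMIs, 10000 draws, false discovery rate 0.001). Doublets were scored per library with Scrublet (scanpy 1.11.5), and the highest scores were removed at a share of 0.8% per 1000 nuclei. Nuclei were normalized with sctransform 0.4.2, integrated and clustered in Seurat 5.3.0 (R 4.3.3; 30 principal components, resolution 0.8), without the members and other myelin lists among the 2952 features, which gave 32 clusters. Clusters were named from 208 marker entries in 18 classes. A name needed at least 3 markers above the other nuclei, a lead of 0.5 (log2) over the next class and no more markers of other classes than of its own among the 10 leading genes. Clusters led by mitochondrial genes, or of low depth with no marker of their own leading, were not named either, and 11 clusters with 2345 nuclei stayed unnamed. The oligodendrocyte lineage was clustered again (15 components, resolution 0.6).

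Raw counts were summed per class and library in Python 3.11.15 (scipy 1.17.1) and scaled to CPM by the class total. With 1 library per group there was no test. Levels have exact Poisson intervals, ratios exact conditional binomial intervals and shares Clopper-Pearson intervals, all at 95%, and they cover counting error only. Total counts per library bound this precision. A ratio passed the fold at 1.5 or more either way with an interval beyond 1 and at least 50 UMIs in the pair. All 9 members were named in each result, with up to 3 further genes per list, day and direction with the largest fold past the limit, and the 6 genes of at least 200 UMIs most like the members, except items not reported here. Members and lists were chosen with earlier results of these data known. TMM factors came from edgeR 4.0.16 and size factors from DESeq2 1.42.0, as alternatives for scaling. Alternatives covered scaling, thinning, depth, doublets, integration, naming, free RNA, the fold and the count minimum. Of the 46983 gene identifiers, 46488 matched GENCODE vM21, a later annotation of the same build, which gave coordinates. Promoters came from RefSeq on GRCm38.p6. The calculations were tested on simulated data.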

Additional observations from a re-analysis of the deposited data

Results flagged for a closer look

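At day 1 Mbp stood on opposite sides of sham in precursor-like and astrocyte-like nuclei. Its log2 ratio to sham was 1.20 in oligodendrocyte precursor-like nuclei, from 36 nuclei at day 1 and 58 in sham, and -0.67 in astrocyte-like nuclei, from 56 and 146. With 1 library per group this difference was not tested. Without the nucleus with most member UMIs in each library the precursor ratio was 1.09 (0.658 to 1.80), so the contrast with astrocyte-like nuclei rests in part on that nucleus.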

How the results depend on the processing

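No paired analysis was possible because each group has 1 library, and for the same reason no replicate could be left out. The members' median log2 ratio in oligodendrocyte-like nuclei stayed between -0.38 and -0.22 at day 1 under every alternative run. At day 3 it was 0.0325 with equal free UMIs subtracted and at day 7 -0.37 with every barcode over 1000 UMIs assigned by marker share. The number of members past the fold and lower at day 1 was 1 when thinned and at 2-fold, beside 5.49% and 1.65% of all genes, and 4 at the lower fold limit tried, beside 9.4%. It was 3, against 2 as reported, in nuclei over 2000 UMIs, with equal free UMIs subtracted, under both marker-share assignments and without the newly formed, mitochondrial and neuron-mixed sub-clusters, beside 5.28% to 9.56% of all genes. At day 3 it was 1 when thinned, with doublets kept, merged without integration, under both marker-share assignments, without the newly formed, mitochondrial and neuron-mixed sub-clusters (added after seeing the data) and as a mean over nuclei, and 2 at the lower fold limit. Of all genes 3.05% to 3.73% passed lower under these settings other than the mean over nuclei, for which it was not computed, and 5.95% at the lower limit. At day 7 it was 0 under TMM, DESeq2, thinning, doublets kept, 2-fold, the mean over nuclei and without the same sub-clusters, and 2 at the lower fold limit, beside 1.68% of all genes at 2-fold, 3.9% to 5.73% under the others with the same exception, and 8.65% at the lower limit. With at least 10 UMIs, 3 of 17 lipid synthesis genes passed lower at day 1 and 1 at day 7, beside 5.13% and 5.29% of all genes.

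The members' level relative to free RNA moved with the choice of droplets. In named neurons barcodes of 1 to 1000 UMIs gave 0.108, 0.114, 0.162 and 0.118 in the order sham, day 1, day 3 and day 7, beside 0.0976, 0.105, 0.149 and 0.103. Doublets kept gave 0.114 in sham, 0.116 at day 1 and 0.115 at day 7, and marker share 0.138 at day 3 and 0.112 at day 7. In microglia-like nuclei doublets kept gave 0.483, 0.666 and 0.519 in sham, day 1 and day 3, marker share 0.386 at day 1 and 0.472 at day 3, and the wider droplets 0.562 at day 7. Without the mixed cluster, an alternative added after seeing the data, the values were 0.148, 0.226, 0.246 and 0.250. The day 1 precursor ratio was 1.26 without the top nuclei. The cause was not tested in any of these. Of the alternatives for single members in oligodendrocyte-like nuclei, 381 moved the value by less than its counting interval and 24 by more. In the tally of all results, 189 alternatives left a main result the same, 42 moved it and 1 weakened it. For the other results 382 were the same and 59 moved.

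Depth limits Opalin, Cnp and Ermn most, with 77 to 258 UMIs per library in oligodendrocyte-like nuclei. In precursor-like nuclei 7 or 8 of the 9 members had under 50 UMIs in each pair of libraries.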

Other observations

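The share of all UMIs taken by the 9 members was also read nucleus by nucleus. In oligodendrocyte-like nuclei its median was 1.03% in sham, 0.834% at day 1, 0.976% at day 3 and 0.927% at day 7, and its lower and upper quartiles were 0.856% and 1.248% in sham and 0.655% and 1.05% at day 1. The nuclei of all libraries overlapped widely, with the lowest at 0.0722% and the highest at 2.59%, both at day 3.

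Cldn11, which lines sheath edges in oligodendrocytes, was also counted in vascular leptomeningeal-like nuclei, the fibroblast-like cells of vessels and meninges. It had 15 UMIs in 27 sham nuclei where free RNA would give 3.57, a ratio of 4.2 (2.35 to 6.93), and 20 UMIs in 48 nuclei at day 3, a ratio of 1.83 (1.12 to 2.83). Thinned to 1000 UMIs, 7.41% and 6.25% of these nuclei had a UMI of Cldn11, and both shares rest on few nuclei. In the sham nuclei Mog was at 3.15 (1.36 to 6.21) times its expected count, Mobp at 2.17 (1.09 to 3.89), and thinned shares were 7.41% for Mag and 11.1% for Mbp. At day 3 Mog was at 0.887 and Mobp at 0.526.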
